A study of Homo sapiens with 54 samples.

Results

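Cultures of hMSN-like cells, human neurons modelled on the medium spiny neurons of the striatum and grown here from H9 stem cells, that had received 1 mM dopamine once a day for 4 days (4 Day) were compared with cultures that had received only the ascorbic acid vehicle (AA). The comparison holds 6 of the 54 RNA-seq libraries of the series, 3 in each group, chosen by their titles and not by any measured value. H9 (WA09) is a single human embryonic stem cell line, differentiated with activin A toward these inhibitory projection neurons. RNA was taken 1 h after the last dose, and both groups received ascorbic acid, in which the dopamine was dissolved. The number of vehicle doses given to the AA cultures is not given in the sources used here, nor do the sources say that the libraries of a group came from separate differentiations, so p-values measure the spread between these 6 libraries, which may be technical.

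Dopamine acts on striatal neurons through G protein-coupled receptors. The D1-like receptors raise cyclic AMP and the D2-like receptors lower it. Signals that pass through cyclic AMP, calcium and the MAPK/ERK cascade reach the nucleus within minutes, where they switch on immediate early genes, mostly transcription factors such as FOS and EGR1 that need no new protein synthesis. These in turn change slower sets of genes, and feedback inhibitors such as the DUSP phosphatases and SPRY proteins dampen the ERK signal. Dopamine in culture medium also oxidizes, so genes of iron handling and antioxidant defence were listed beside the signalling genes.

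The 4 Day libraries held 11406676 to 13140779 reads in genes and the AA libraries 14747364 to 16013901, so the treated libraries were the shallower ones, without overlap. Intron reads made up 16.0% to 16.4% of reads at 4 Day and 14.7% to 15.8% in AA. The 10 most abundant genes took 9.02% to 10.1% and 7.32% to 7.92% of reads, again without overlap. Thinned to the depth of the shallowest library, the comparison gave 2178 calls against 2336 at full depth, and the part of the intron and top gene shares in the results was not tested. Log2 CPM profiles correlated at 0.983 to 0.989 within groups and at 0.977 to 0.983 between them.

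The cultures were mixed, and striatal markers were not their most abundant neuronal markers. PPP1R1B, which encodes DARPP-32, the classic marker of striatal projection neurons, was at 22.0 to 25.0 TPM (a transcript level scaled for gene length and library depth) in AA. DRD1 was at 0.285 to 1.29 TPM, and PDYN, the dynorphin precursor of D1-type neurons, was at 0.0816 to 0.389 TPM. In the same libraries NEUROD6 was at 596 to 722 TPM and TBR1 at 150 to 160 TPM, and both mark glutamatergic neurons of the cortex. Summed in AA, the 29 striatal markers gave 394 to 441 TPM and 13 genes of the GABA neuron machinery 366 to 391 TPM. The 14 glutamate neuron markers gave 1972 to 2243 TPM. TTR, a transthyretin gene typical of choroid plexus, spread from 611 to 2249 TPM over the 6 libraries. The microglia gene TYROBP was listed at 0 in all 6, but it was the only one of the 8 microglia markers that was. Of these 8 markers, 2 had enough reads to be tested, so TYROBP alone does not show that microglial transcripts were absent.

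EGR2 and EGR1 had the largest log2 fold changes among the immediate early genes, and both carry the binding motif of serum response factor, the CArG box, in the 250 bases before the transcription start. These upstream stretches are shown 5′ to 3′ on the gene's strand, from RefSeq on GRCh38.p14, with CArG boxes in capitals. EGR2 lies at chr10:62816367-62816616 on the minus strand and EGR1 at chr5:138465229-138465478 on the plus strand.
EGR2: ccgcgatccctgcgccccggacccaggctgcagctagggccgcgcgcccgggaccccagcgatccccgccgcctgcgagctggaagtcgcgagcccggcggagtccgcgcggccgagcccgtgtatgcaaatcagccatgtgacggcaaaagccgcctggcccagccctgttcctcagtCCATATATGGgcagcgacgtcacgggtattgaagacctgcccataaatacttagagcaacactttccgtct
EGR1: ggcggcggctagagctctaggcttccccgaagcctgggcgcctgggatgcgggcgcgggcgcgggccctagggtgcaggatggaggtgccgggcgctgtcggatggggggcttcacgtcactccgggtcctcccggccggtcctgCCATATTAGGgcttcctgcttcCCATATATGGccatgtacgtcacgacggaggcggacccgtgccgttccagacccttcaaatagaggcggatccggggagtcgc
The EGR2 box begins 71 bases before the start, and the EGR1 boxes begin 105 and 83 bases before it. Searched on both strands, a CArG box was found upstream of 394 of 27305 genes in the RefSeq promoter table (1.44%), and upstream of 3 of the 28 immediate early genes that rose and have an entry there, EGR1, EGR2 and SRF, and also upstream of ACTG2. The cyclic AMP response element TGACGTCA was found upstream of 4 of these 28, JUND, DUSP1, MAFF and PPP1R15A, against 2.03% of all genes, and the AP-1 motif TGACTCA upstream of none of them, against 5.19%. The EGR motif GCGGGGGCG was found in 5 of the 28 against 5.74% of all genes, and ACGTG, the core of the hypoxia response element, in 11 against 21.7%. Over the 12542 tested genes with an entry the shares were 1.51% for the CArG box, 3.19% for the cyclic AMP response element and 4.15% for AP-1. For the EGR motif and ACGTG they were 9.62% and 27.7%. The 11 genes with ACGTG include EGR2, although the EGR2 stretch printed above holds it on neither strand, so that match lies in other sequence. The motif counts may therefore draw on more than the printed kind of stretch for a gene. None of these motifs contains another, and a match describes letters only.

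Across the transcriptome, 2336 of 18897 genes tested were called at an adjusted p under 0.05 (12.4%; edgeR quasi-likelihood test with Benjamini-Hochberg adjustment), 1175 higher at 4 Day (6.22%) and 1161 lower (6.14%). Most changes were small: 1614 of the 2336 differed by less than 0.5 on the log2 scale, and 167 by 1 or more, 134 of them higher. The median log2 fold change over all genes tested was 0.00. With exon reads alone 2145 genes were called, 1162 higher (7.32%) and 983 lower (6.19%), and 1777 genes were called by both read counts, none in opposite directions. The call was far more restricted when the spread was estimated over all time course groups together, with 463 genes, of which 461 were among the 2336. In that fit 0.941% of 21690 genes tested were called higher and 1.19% lower. The count fell from 2336 to 1089 without AA replicate 2, 1207 without 4 Day replicate 3, 1376 without AA replicate 1, 1502 without 4 Day replicate 1 and 1517 without AA replicate 3.

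**Figure D1:**
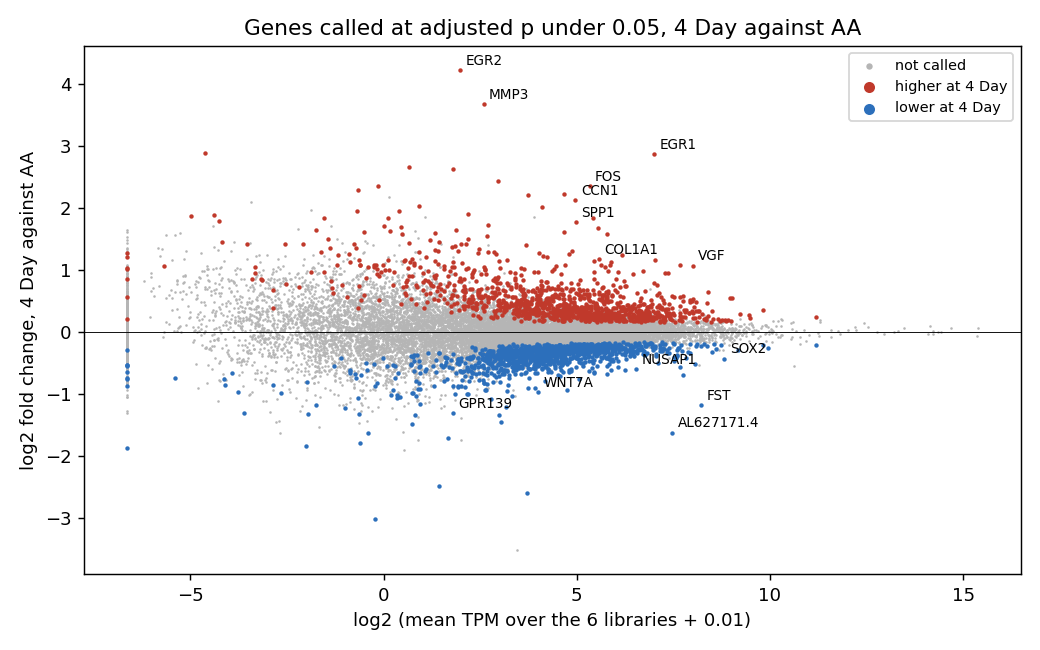
Log2 fold change of 4 Day against AA (vertical axis) by log2 of the mean TPM over the 6 libraries plus 0.01 (horizontal axis), 1 point per gene tested, leaving out genes with 3 reads or fewer in every library of a group. Red and blue points are genes called higher and lower at an adjusted p under 0.05, with EGR2 (4.23) and EGR1 (2.87) high above the bulk of small changes.

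The immediate early genes made the strongest group. Of 38 tested, 34 rose and 1 fell, against 6.22% and 6.14% of all genes tested, and their median log2 fold change was 1.03 against 0.00. EGR1, a zinc finger transcription factor, was at 236, 226 and 217 TPM in the 4 Day libraries and at 27.0, 28.6 and 35.0 TPM in AA, 7.31-fold higher (log2 fold change 2.87, SE 0.09, adjusted p = 1.59e-08). EGR2, its relative, was at 7.79, 9.13 and 5.60 TPM against 0.447, 0.377 and 0.312 (log2 fold change 4.23, SE 0.30, adjusted p = 2.39e-05). The groups did not overlap for either gene, as for 27.6% of all genes tested, although EGR2 rested on 5 to 7 reads in each AA library.

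FOS, which forms the AP-1 transcription factor with JUN proteins, was at 68.8, 66.7 and 67.6 TPM at 4 Day and 12.6, 12.8 and 13.4 TPM in AA, a tight 5.13-fold rise (adjusted p = 1.59e-08). ARC, a synaptic protein that controls AMPA receptor traffic, was at 35.8, 39.8 and 50.0 TPM against 9.17, 8.26 and 8.74 (log2 fold change 2.22, SE 0.14). FOSB, whose stable product accumulates in striatum under repeated stimulation, was at 2.03, 1.501 and 2.64 TPM against 0.445, 0.400 and 0.777 (log2 fold change 1.96, SE 0.37, adjusted p = 0.00702). None of these 3 genes had overlapping groups, and FOSB was the least abundant of them. The FOS and EGR partners JUNB (1.58), EGR3 (1.90), FOSL2 (1.28) and ATF3 (1.22) rose by these log2 fold changes, while JUN and JUND, already at 134 to 154 and 513 to 586 TPM in AA, rose by 0.59 and 0.30.

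Other members of the list act outside the FOS and EGR families. ZFP36, which speeds the decay of AU-rich messages, was at 18.9, 19.3 and 27.2 TPM against 5.14, 4.22 and 5.53 (log2 fold change 2.21, SE 0.21). GADD45B, a stress and growth arrest gene, was at 26.0, 24.6 and 31.7 TPM against 6.82, 6.64 and 6.87 (log2 fold change 2.02, SE 0.16). Both groups were separated in each case. CCN1 and CCN2, secreted matricellular proteins, rose by 2.13 and 1.68 on the log2 scale, from 10.1 to 12.1 and 20.3 to 26.1 TPM in AA to 49.8 to 53.4 and 69.8 to 74.7 TPM at 4 Day. NR4A2, a nuclear receptor of dopaminergic neurons, was the member that fell, at 8.62, 8.94 and 9.42 TPM against 14.5, 14.4 and 11.5 (log2 fold change -0.50, SE 0.11, adjusted p = 0.0133). Its relatives NR4A1 (0.88) and NR4A3 (0.78) rose, and FOSL1 (1.19), KLF2 (0.18) and DUSP2 (-0.36) did not pass the test. Between 29 and 34 members were called higher when any 1 library was left out, and 27 of 39 under the spread of all time course groups. The number called lower was 0 or 1 with a library left out, so NR4A2 lost its call in at least 1 of these fits.

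**Figure D2:**
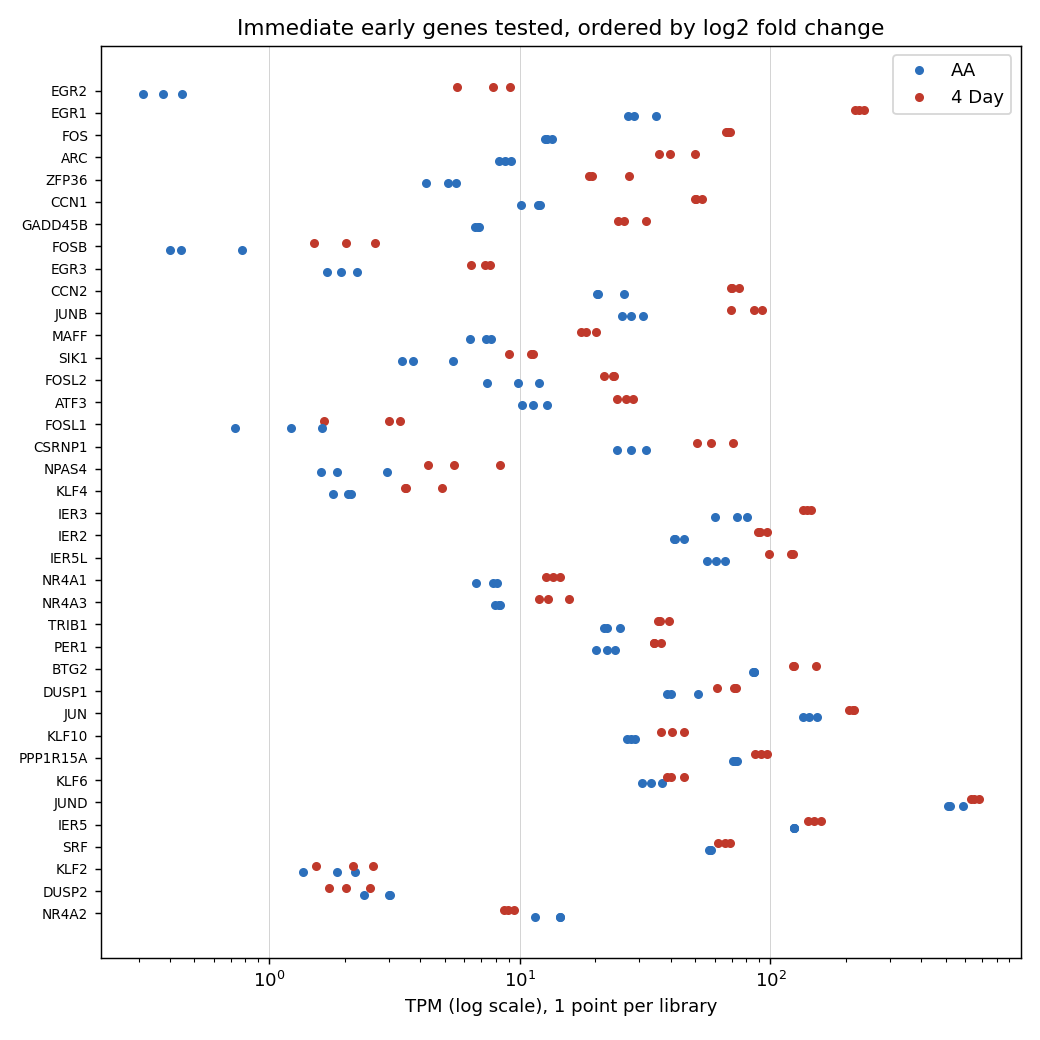
TPM on a log scale (horizontal axis) of the 38 immediate early genes tested, 1 point per library, 4 Day in red and AA in blue, ordered from the highest to the lowest log2 fold change. From EGR2 to ATF3 the red and blue points do not overlap, and NR4A2 at the bottom is the one gene called lower.

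The ERK feedback inhibitors, which are themselves transcribed in response to ERK, followed: 13 of 20 tested rose and 1 fell, with a median of 0.30. DUSP5, a nuclear ERK phosphatase, was at 35.5, 37.1 and 40.3 TPM against 11.8, 12.7 and 14.2 (log2 fold change 1.62, SE 0.12, adjusted p = 2.39e-05). DUSP6, the cytoplasmic ERK phosphatase, was at 100.3, 105 and 99.1 TPM against 40.6, 39.3 and 48.7 (log2 fold change 1.25, SE 0.09). SPRY4 (0.94), SPRY2 (0.68), SPRY1 (0.55), ETV4 (0.56) and ETV5 (0.55) rose as well, whereas PHLDA1 fell by 0.22 on the log2 scale. Of the late activity-induced genes, which follow the early wave, 10 of 24 rose and none fell, with a median of 0.41. VGF, the precursor of secreted neuropeptides, was at 350, 342 and 342 TPM against 151, 171 and 178 (log2 fold change 1.07, SE 0.07). BHLHE40 (1.31), RASD1 (1.08), RGS4 (1.07), GEM (1.02) and BDNF (0.76), the neurotrophin, were among the others that rose, and HOMER1 (0.00), NPTX1 (-0.18), PENK (-0.22) and SST (-0.20) did not pass the test.

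Among the 12 genes with the largest rises by the naming rule, 5 were neither immediate early genes nor late activity genes. MMP3, a matrix metalloproteinase, was at 6.49, 21.7 and 5.22 TPM against 0.888, 0.2997 and 1.40, with 4 Day replicate 2 well above the others (log2 fold change 3.68, SE 0.65, adjusted p = 0.00484). Without that library its log2 fold change was 2.72. Its neighbour MMP1, an interstitial collagenase, had 12, 28 and 28 reads at 4 Day and 2, 1 and 0 in AA, too few for a fold. WTAPP1 on the opposite strand overlaps both metalloproteinase genes. ACTG2, a smooth muscle actin (2.63, SE 0.33), DACT2, an inhibitor of Wnt and TGF-beta signalling (2.44, SE 0.30), and IRF4, a transcription factor best known in lymphocytes (2.37, SE 0.39), rose by these log2 fold changes from low levels, at 0.939, 2.63 and 0.331 TPM on average in AA. All 5 stayed called without any 1 library, and ACTG2 and DACT2 lost the call under the spread of all time course groups.

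Genes of the extracellular matrix rose broadly. Of 25 collagens tested, 14 rose and none fell, with a median of 0.41, and of 30 matrix glycoproteins 17 rose and 1, VCAN (-0.19), fell, with a median of 0.36. COL1A1, a chain of fibrillar type I collagen, was at 67.8, 54.6 and 75.8 TPM against 22.3, 31.8 and 34.9 (log2 fold change 1.18, SE 0.15, adjusted p = 0.00102). COL3A1 (0.80), COL1A2 (0.75), COL5A2 (0.65) and the basement membrane chain COL4A1 (0.63) rose with it. SPP1, the secreted glycoprotein osteopontin, was at 38.3, 42.9 and 63.6 TPM against 12.9, 13.3 and 16.7 (log2 fold change 1.78, SE 0.19). FN1 (0.98), EFEMP1 (0.96), TNC (0.76) and LAMA4 (0.65) followed. Of the collagens 13 to 15 were called higher without any 1 library. Under the spread of all time course groups only 3 of 25 collagens and 4 of 31 matrix glycoproteins were, against 0.941% of all genes in that fit.

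Markers of mesenchymal and vascular cells moved with the matrix genes: 7 of 15 tested rose and none fell, with a median of 0.69, and their summed level was 503 to 530 TPM at 4 Day and 264 to 353 TPM in AA. The list shares COL1A1, COL1A2, COL3A1, LUM and DCN with the matrix lists and ACTA2 and TAGLN with the actin list. The endothelial marker CDH5 was at or under 0.0548 TPM in every library, but CLDN5, another vascular marker of the list, averaged 8.27 TPM at 4 Day. TWIST1 (-0.05), DCN (0.36) and PRRX1 (0.36) did not pass the test, and PDGFRB rose by 0.38. In bulk RNA more cells of a type and more RNA per cell cannot be told apart, and the part of these cells in the matrix result was not tested. Targets of serum response factor and actin genes gave 10 of 21 higher and none lower, with ACTA2 (0.99), TAGLN (0.86) and MYL9 (0.71) leading, but none of 22 under the spread of all time course groups. Targets of YAP, the effector of the Hippo pathway, gave 8 of 21 higher, with NUAK2 (0.78), AMOTL2 (0.76) and GADD45A (0.72) after CCN1 and CCN2, and 1 lower, TEAD2 (-0.31). CCN1 and CCN2 are also in the immediate early list, so their calls are not separate ones.

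In the TGF-beta and BMP list 9 of 40 rose and 4 fell, against 6.22% and 6.14% of all genes tested, and without AA replicate 2, AA replicate 3 or 4 Day replicate 1 the number lower was 1, and 2 without 4 Day replicate 2: the BMP response genes ID3 (1.17) and ID1 (0.95), INHBB (1.45), an activin subunit, and the inhibitor SMAD7 (0.73) rose, while the receptor BMPR2 (-0.31), SMAD4 (-0.21), SMAD9 (-0.22) and FST were lower. FST, the activin antagonist follistatin, was at 167, 281 and 69.2 TPM against 359, 421 and 486, with a wide spread at 4 Day (log2 fold change -1.18, SE 0.30, adjusted p = 0.0255). Its adjusted p rose above 0.05 without 4 Day replicate 1, AA replicate 2 or AA replicate 3, to at most 0.0813, to 0.0961 by DESeq2 and to 0.183 under the spread of all time course groups. In the Wnt list 7 of 39 rose, among them the antagonist DKK1 (1.33), FZD5 (0.87) and WNT7B (0.50), and 2 fell, WNT7A and LEF1, near the 6.14% of all genes. The number higher was 4 without 4 Day replicate 3 or AA replicate 2, 3 without AA replicate 1 and 0 of 40 under the spread of all time course groups. WNT7A, a Wnt ligand of the developing forebrain, was at 10.3, 13.4 and 7.73 TPM against 18.7, 20.7 and 25.4 (log2 fold change -0.97, SE 0.16, adjusted p = 0.00407). The Notch target and glial progenitor gene HES1 was at 190, 202 and 220 TPM against 112, 108 and 110 (log2 fold change 0.96, SE 0.07).

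**Figure D3:**
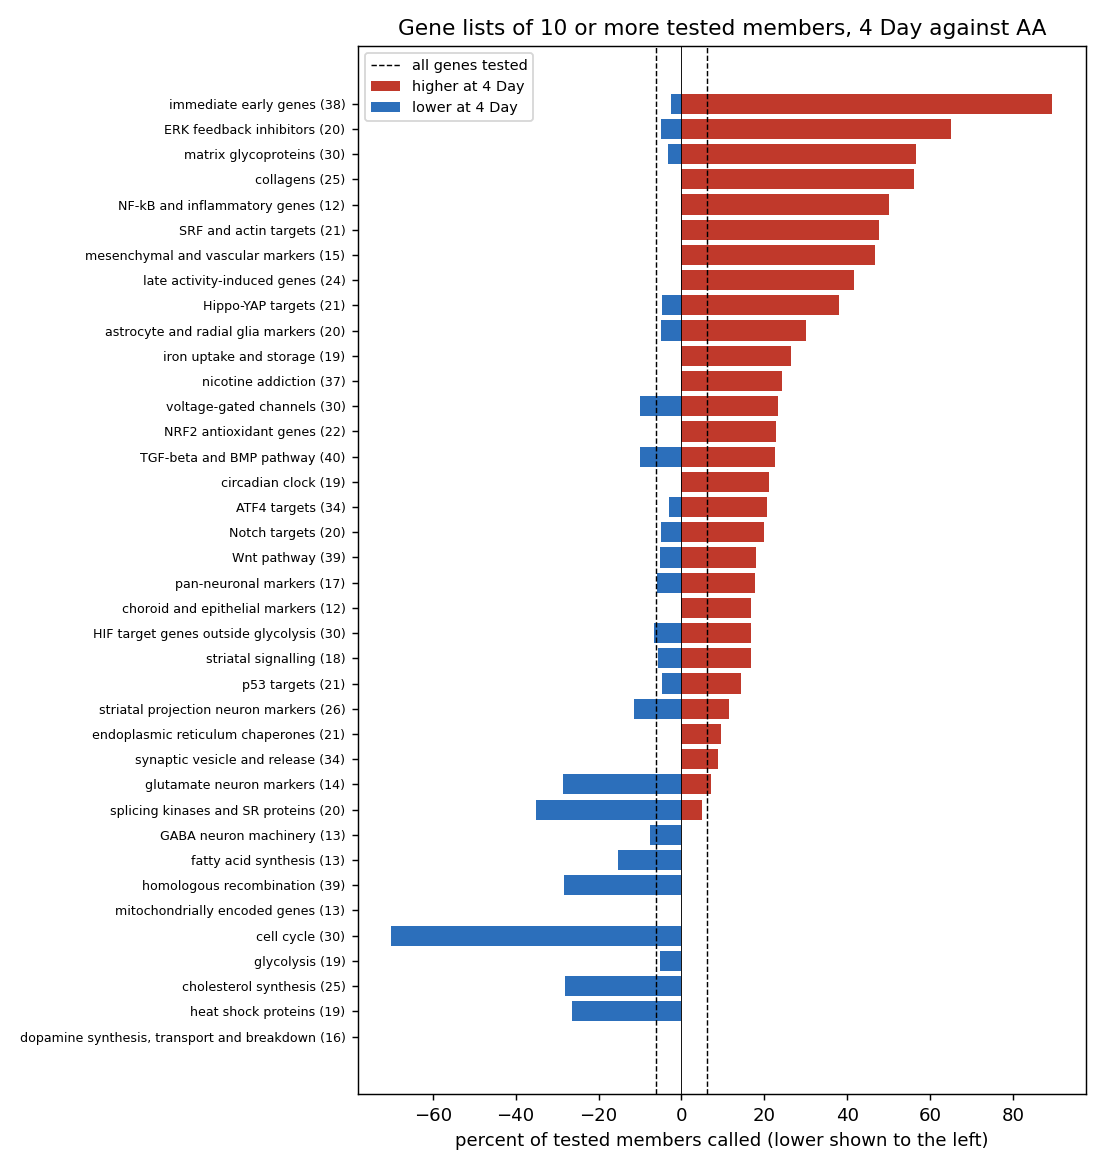
Percent of tested members of each gene list called higher (red, to the right) or lower (blue, to the left) at 4 Day against AA, with the number of members tested in brackets and dashed lines at the percentages over all genes tested. Immediate early genes (34 of 38) lead on the right and cell cycle genes (21 of 30) on the left.

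Genes of cell division formed the largest group that fell. Of 30 cell cycle genes tested, 21 fell and none rose, with a median of -0.34. NUSAP1, a spindle protein, was at 70.7, 69.8 and 81.2 TPM against 109.8, 115 and 113 (log2 fold change -0.59, SE 0.07, adjusted p = 0.000662). KIF20A (-0.61), AURKB (-0.55), AURKA (-0.52), BUB1B (-0.48), CCNA2 (-0.46), TOP2A (-0.38) and MKI67 (-0.34), mostly mitotic genes, fell as well, while the DNA replication genes MCM2 to MCM6 (-0.14 to -0.09) and PCNA (-0.06) did not pass the test. Between 13 and 20 of the 30 were called lower with 1 library left out, 13 without 4 Day replicate 1 or AA replicate 1. Under the spread of all time course groups 3 were, against 1.19% of all genes in that fit. SOX2, a neural progenitor factor, was at 389, 359 and 394 TPM against 531, 532 and 499.9 (log2 fold change -0.43, SE 0.05), and NEUROG2 (-0.37) and NEUROD1 (-0.46), factors of newborn excitatory neurons, fell too. Of 39 homologous recombination genes, 11 fell and none rose, led by XRCC2 (-0.74), BRIP1 (-0.62) and BRCA2 (-0.56). This pathway was counted as one picked from these samples and so as no independent evidence, although the study's text does not name it. The number lower was 6 without 4 Day replicate 2, AA replicate 2 or AA replicate 3, 7 without AA replicate 1 and 8 without either of the other libraries.

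The rule's 12 largest falls were mostly low or uncertain transcripts. AL627171.4, a long noncoding RNA that overlaps the signal recognition particle RNA gene RN7SL2, was at 96.4, 87.6 and 72.8 TPM against 289, 316 and 204 (log2 fold change -1.62, SE 0.13, adjusted p = 4.22e-05). Its call was lost under the spread of all time course groups (adjusted p = 0.131), and its mean was 224 TPM at 2 Day, 48.6 TPM at 3 Day and 247 TPM at 5 Day. GPR139 (-1.30), PROKR2 (-1.21) and GPR22 (-1.47), all G protein-coupled receptors, fell from 5.46, 13.4 and 2.46 TPM on average in AA, and each lost its call without 4 Day replicate 3 and without AA replicate 2. GPR139 and PROKR2 also lost it without 4 Day replicate 1 and without AA replicate 3. GDF1 (-2.60), FAM72B (-1.07), FAM72D (-1.02), UPK3BL2 (-1.33), AC069281.2 (-1.70) and AC002472.2 (-2.47) had between 0.124% and 45.2% of their reads placed uniquely, so reads of overlapping or near-identical genes could be split between them, and GDF1 had 0 reads in 1 4 Day library and 70 in another. With uniquely placed reads alone FAM72B (-0.89), FAM72D (-1.15) and AC069281.2 (-1.61) were still called lower. AC092645.2 (-1.03), a noncoding RNA that overlaps ZC3H8 on the opposite strand, was not called in any of the 6 fits that left out a library (adjusted p up to 0.110), nor under the spread of all time course groups (0.0889).

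Calls among receptors and striatal genes went both ways, and the median changes were small. Of 7 dopamine and adenosine receptors tested, 1 fell: DRD2 was at 3.68, 3.97 and 3.40 TPM against 4.80, 5.26 and 6.22 (log2 fold change -0.59, SE 0.17, adjusted p = 0.0450). Counting exon reads alone, DRD2 missed the threshold (adjusted p = 0.0809), and no receptor was called in 5 of the 6 fits that left out a library, all but that without 4 Day replicate 2. DRD1 was at 1.83, 0.431 and 1.32 TPM against 1.29, 1.03 and 0.285 and did not pass. The 8 receptors of the list summed to 54.1 to 61.7 TPM at 4 Day and 65.7 to 69.2 TPM in AA. PPP1R1B was at 15.2, 19.9 and 8.73 TPM against 22.0, 25.0 and 23.4 (log2 fold change -0.65, SE 0.19, adjusted p = 0.0498), just under the threshold and with the lowest value in 4 Day replicate 3. BCL11B, a transcription factor of these neurons also known as CTIP2, fell by 0.42 on the log2 scale, and CHRM4 (1.06), RGS9 (0.52) and ADCY5 (0.30) rose. In total 3 of 26 striatal markers rose and 3 fell, against 6.22% and 6.14% of all genes tested, with a median of 0.06. With 1 library left out 1 or 2 were higher, 1 without AA replicate 1 or 3, and 1 or 2 lower, 1 in all but the fit without 4 Day replicate 2. None of 16 genes of dopamine synthesis, transport and breakdown was called by edgeR or DESeq2, and 2 had an unadjusted p under 0.05 by edgeR.

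The nicotine addiction pathway, chosen by the study on these samples and so no independent evidence of direction, gave 9 of 37 higher and none lower, with a median of 0.11. The GABA-A receptor subunits GABRQ (0.97), GABRB1 (0.66), GABRB2 (0.54), GABRE (0.38) and GABRA2 (0.36), the NMDA receptor subunits GRIN2C (1.02) and GRIN2A (0.76), the AMPA receptor subunit GRIA2 (0.30) and the vesicular glutamate transporter SLC17A6 (0.27) were the 9. GRIN1, the obligatory NMDA receptor subunit, was at 5.28, 5.01 and 5.48 TPM against 6.13, 6.02 and 4.78, with overlapping groups (log2 fold change -0.26, SE 0.13, adjusted p = 0.215). GABRR2, a GABA-C receptor subunit, had 18, 13 and 8 reads against 12, 26 and 22, and its difference (-0.24, SE 0.42) turned to 0.04 without 4 Day replicate 3. Between 5 and 8 genes of the pathway were called higher with 1 library left out, 5 without AA replicate 2, and 2 of 39 under the spread of all time course groups. Among voltage-gated channels KCNA1 (1.43) rose and the inward rectifier KCNJ6 (-0.93) fell, in a list with 7 of 30 higher and 3 lower. The number higher was 2 without 4 Day replicate 3, 3 without AA replicate 3 and 4 without 4 Day replicate 1, AA replicate 1 or AA replicate 2, and the number lower was 1 without 4 Day replicate 3 or AA replicate 1.

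Stress lists moved in part, beside 6.22% of all genes tested called higher and 6.14% lower. In the iron list 5 of 19 rose, HMOX1 (0.70), which degrades haem, HEPH (0.46), the transferrin receptor TFRC (0.41), BLVRB (0.35) and the ferritin heavy chain FTH1 (0.24), and none fell. The number was 2 without 4 Day replicate 3, AA replicate 1 or AA replicate 2 and 3 without 4 Day replicate 1. In the NRF2 antioxidant list 5 of 22 rose, SRXN1 (0.48), SLC7A11 (0.41) and NQO1 (0.39) among them, but 2 without 4 Day replicate 1 or 2, 1 without 4 Day replicate 3, AA replicate 1 or AA replicate 2, and none under the spread of all time course groups. The iron and NRF2 lists overlap, so their counts are not separate results. Of 12 NF-kB and inflammatory genes 6 rose, and 3 did without 4 Day replicate 1, 4 Day replicate 3, AA replicate 1 or AA replicate 2. SOCS3, the feedback inhibitor of JAK-STAT signalling, was at 76.4, 53.6 and 69.0 TPM against 15.2, 19.4 and 21.2 (log2 fold change 1.85, SE 0.15), and ICAM1 (1.44) and CCL2 (1.26) followed, while IL6 was listed at 0 in all 6 libraries. Heat shock genes gave none of 19 higher and 5 lower, CHORDC1 (-0.67) and HSPH1 (-0.46) first, and cholesterol synthesis none of 25 higher and 7 lower, HSD17B7 (-0.51) and MSMO1 (-0.47) first, with 4 lower without 4 Day replicate 3. None of 13 mitochondrially encoded genes was called by edgeR, and 0 had an unadjusted p under 0.05.

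The neighbouring days of the time course showed how far the 4 Day pattern was particular to that day. Against 3 Day no gene of 19056 was called by edgeR on gene reads (0%; 2372 had an unadjusted p under 0.05), whereas DESeq2 called 217 and exon reads gave 65 of 15682 (0.414%), 28 higher and 37 lower at 4 Day. Leaving out 3 Day replicate 1 gave 705 genes and leaving out 4 Day replicate 2 gave 40. Against 2 Day 7 of 19109 were called (0.0366%; 1778 had an unadjusted p under 0.05), 6 higher (0.0314%) and 1 lower (0.00523%), and the count was 2 without 4 Day replicate 1, 4 without 4 Day replicate 3 and 11 without 2 Day replicate 3. FOS was at 64.5 ± 8.19 (SD, n = 3) TPM at 2 Day, 68.5 ± 2.71 at 3 Day, 67.7 ± 1.06 at 4 Day and 12.9 ± 0.446 in AA. CCN1 and IER3 were higher on average at 3 Day, at 107 and 283 TPM, than at 4 Day, at 51.2 and 140.3 TPM. No immediate early gene was called by edgeR between 4 Day and either day on gene reads, with 13 of 39 at an unadjusted p under 0.05 against 3 Day and 1 against 2 Day, and by exon reads IER3 was called lower at 4 Day than at 3 Day (-1.08).

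WNT7A was among the 65 genes called between 4 Day and 3 Day by exon reads. It was at 24.8 ± 1.62 TPM at 3 Day (n = 3), near AA at 21.6 ± 3.43, and at 10.5 ± 2.85 at 4 Day and 7.17 ± 1.65 at 2 Day (log2 fold change of 4 Day against 3 Day by exon reads -1.31, adjusted p = 0.0268). MAFA (-2.72), SOST (-1.82), THBS1 (-1.75), CRYAB (-1.75) and LDLRAD4 (-1.58) were the largest falls from 3 Day to 4 Day by exon reads, and CLDN5 (1.64), PCDH20 (1.25), HES5 (1.16), GJD2 (1.01) and BHLHE22 (0.97) the largest rises. These were the genes with the largest changes among the 65, chosen after their values were seen. FST was at 535 ± 23.9 TPM at 3 Day and 112 ± 57.2 at 2 Day, but its change to 4 Day (-1.63) did not pass on gene reads (adjusted p = 0.126). CCN1 varied widely at 3 Day, at 55.2, 114 and 151 TPM, while its 4 Day libraries lay within 49.8 to 53.4 TPM.

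**Figure D4:**
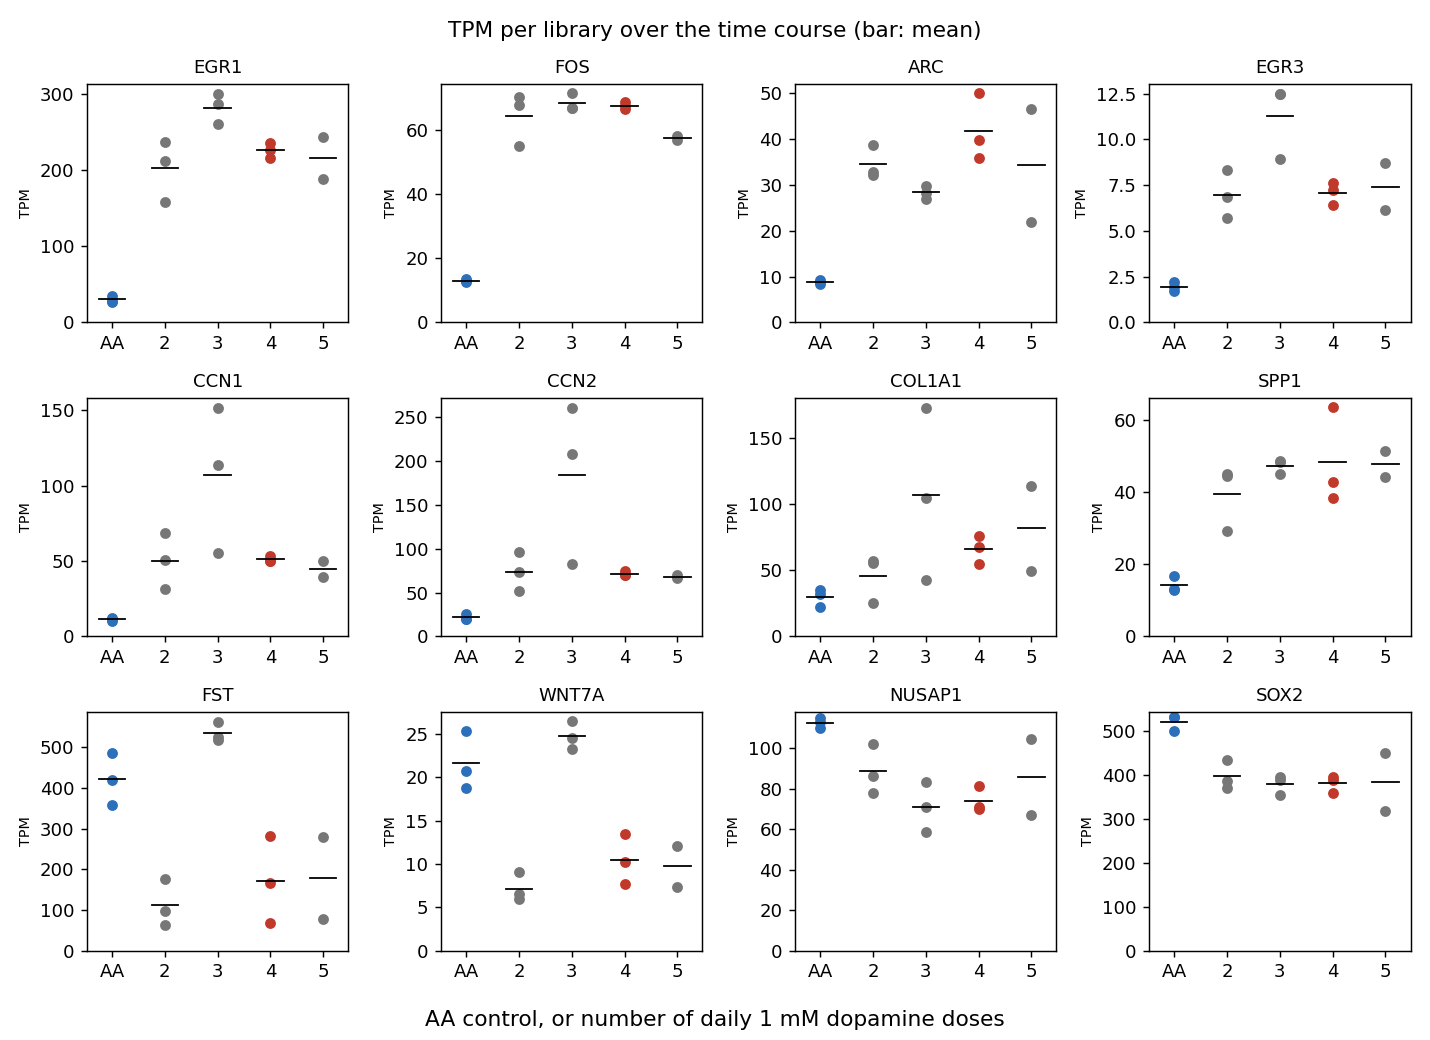
TPM per library (vertical axis, from 0) of 12 genes in AA and after 2, 3, 4 and 5 daily doses of 1 mM dopamine (horizontal axis), with 4 Day in red, AA in blue and bars at the mean. The 5 Day group has 2 libraries here. EGR1 and FOS stay high on every day, while WNT7A and FST lie below AA after 2, 4 and 5 doses and not after 3.

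The 7 genes that separated 4 Day from 2 Day were HFM1 (2.05), FP236383.3 (1.97), AL162581.1 (1.76), PDE3A (1.38), SLCO5A1 (0.88) and DANT2 (0.87), higher at 4 Day by these log2 fold changes, and H2AC18, lower. The 6 higher genes were called on gene reads, which include introns, and none of them by exon reads. HFM1, for one, was at 2.87 to 4.24 TPM at 4 Day and 2.83 to 3.46 TPM in AA, levels built on exons that overlap, while its gene reads gave a log2 fold change of 1.37 against AA. FP236383.3 carries ribosomal RNA sequence and took 1.79% to 2.95% of reads at 4 Day, 0.523% to 0.624% at 2 Day and 0.582% to 1.09% in AA. Its near-identical copy FP671120.5 took 0.0113% in 4 Day replicate 2 and 0.968% and 1.38% in the other 4 Day libraries. How reads were assigned between the copies was not tested. H2AC18, a replication-type histone with near-identical copies, had 1, 0 and 0 reads at 4 Day, 22, 90 and 65 at 2 Day and 0 in every AA library. With exon reads H2AC18 was the one gene called (adjusted p = 0.0182).

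A separate set of libraries, 1 mM Chronic 1 h against PBS, shares no library with 4 Day and AA and also followed repeated dopamine. In it 2581 of 25000 genes were called higher (10.3%) and 1822 lower (7.29%). Of the 1172 genes higher at 4 Day and measured there, 781 had the same sign (66.6%, against 49.5% of all genes). Of these 1172, 352 were called the same way and 79 the opposite way. Of 1160 genes lower at 4 Day, 787 had the same sign (67.8%, against 50.5% of all genes), 341 were called the same way and 82 the opposite way. The 352 and 341 genes make up 30.0% and 29.4% of the measured 4 Day calls and 13.6% and 18.7% of the Chronic 1 h calls in that direction.

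The immediate early genes rose there too, 31 of 39 with 1 lower, and cell cycle genes fell, 21 of 30, while the collagens gave 3 of 25 higher and 9 lower. The difference of effects was tested in a fit over the 4 groups, an alternative added after seeing the data, which called 2484 of 24837 genes (10.0%). EGR1 rose by 4.35 on the log2 scale in Chronic 1 h against 2.87 at 4 Day (adjusted p of the difference 0.000165), and FOS by 3.32 against 2.36 (0.00369). SPP1 fell by 0.57 in Chronic 1 h and rose at 4 Day (0.000132), HES1 fell by 0.55 and rose at 4 Day (9.15e-05), and ARC rose by 2.57 against 2.22 without passing the test of the difference (0.353). In 1 mM Acute 1 h against PBS, where 64.4% of 23711 genes were called, 30.9% higher and 33.6% lower, 752 of 1170 genes higher at 4 Day were called higher, and 325 of 1159 genes lower at 4 Day were called lower and 307 higher. Cell cycle genes were among those that differed in direction, with 20 of 30 higher and 3 lower after the acute dose on gene reads, though 8 higher and 9 lower by exon reads. The PBS libraries received another vehicle than AA and were sequenced more deeply. By the study's methods acute cultures were younger than chronic and time course cultures, and the same PBS libraries serve both contrasts here. Intron reads made up 12.3% to 13.2% of reads in Acute 1 h and 19.5% to 21.8% in PBS. Vehicle, library set and culture age therefore cannot be told apart from dosing in these contrasts.

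**Figure D5:**
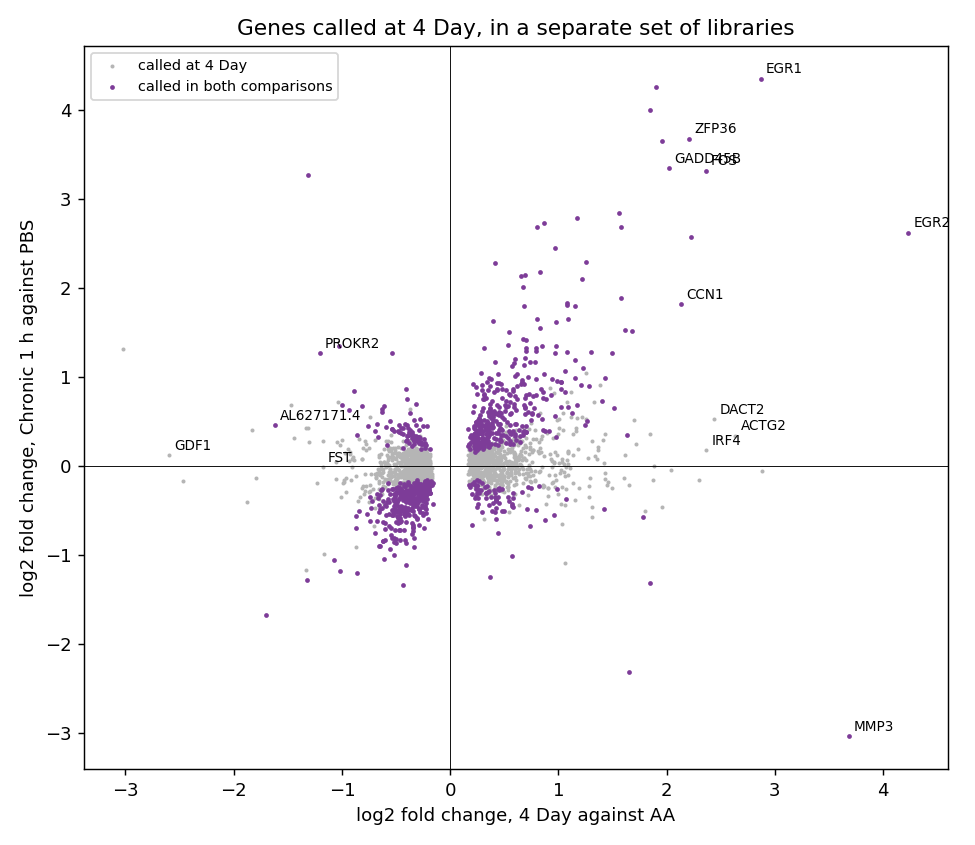
Log2 fold change of Chronic 1 h against PBS (vertical axis) by that of 4 Day against AA (horizontal axis) for genes called at 4 Day, with purple points called in both comparisons. EGR1 (2.87 and 4.35) and FOS (2.36 and 3.32) lie at the upper right, and MMP3 (3.68 and -3.04) is in the lower right corner.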

How the data were processed

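Per the labels and the study's methods, the authors mapped trimmed reads to GRCh38 (hg38) with CLC Genomics Workbench and deposited, for each library, a table of 60676 genes with counts of total gene reads, exon reads, intron reads and uniquely placed reads, and TPM values; gene reads equal exon plus intron reads, and counts are not normalized. The deposited TPM values were used for levels only, and exact zeros are reported as listed. Whether counting used strand is not given in the sources used here. Counts of the 3 4 Day and 3 AA libraries were filtered with filterByExpr (minimum count 10), scaled by TMM and tested with edgeR 4.0.16 (quasi-likelihood, Benjamini-Hochberg, adjusted p under 0.05) in R 4.3.3, these 2 groups alone; DESeq2 1.42.0 was an alternative. On simulated counts for 18577 genes of this comparison, edgeR recovered 93 of 98 genes changed 2-fold and 102 of 102 changed 4-fold, with 14 false calls. The changed genes were drawn only from genes with many reads, and no smaller fold was simulated. Recovery of small changes and of genes with few reads was therefore not tested. Total gene reads per library, 11406676 to 16013901, set the precision, and p-values cover counting error and the spread between libraries. Named genes were the 12 largest log2 fold changes in each direction among genes called by gene and exon reads, with non-overlapping TPM and the higher group averaging 1 TPM or more, plus list members and GRIN1 and GABRR2; no fold is given where a group has 3 reads or fewer in every library. The 44 gene lists, the motifs and the members were chosen with earlier results of these data known. The alternatives were another scaling, test, filter, read column, thinning, replicate block, fit over all time course groups and leaving out each library. One library of the 5 Day group was not analysed here.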

Additional observations from a re-analysis of the deposited data

Results flagged for a closer look

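Between 4 Day and 2 Day the log2 fold changes of 6 genes passed the test with enough reads in both groups: HFM1 (2.05), FP236383.3 (1.97), AL162581.1 (1.76), PDE3A (1.38), SLCO5A1 (0.88) and DANT2 (0.87), each by edgeR on gene reads, and none of them by exon reads. All of them but DANT2 were also called higher against AA on gene reads.

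For 15 of the 24 genes named by rule, which were picked for large 4 Day effects, the effect at 4 Day against AA differed from that of Chronic 1 h against PBS by the interaction term, as for 10.0% of all genes. One of them, MMP1, has too few reads in AA for a fold and is given no value. The 4 Day effect was larger for MMP3 (difference of log2 fold changes 6.79), ACTG2 (2.34), IRF4 (2.24), DACT2 (1.96) and EGR2 (1.67). It was smaller for EGR1 (-1.44), ZFP36 (-1.42), GADD45B (-1.28) and FOS (-0.91), which rose in both comparisons. It was lower for PROKR2 (-2.43), AC092645.2 (-2.33), GPR22 (-2.11), AL627171.4 (-2.03) and GPR139 (-1.53). Vehicle, library depth and dosing scheme differ together between these contrasts, and their parts were not tested.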

How the results depend on the processing

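The 2336 calls of 4 Day against AA fell to 463 with the spread of all time course groups and to 128 when a log2 difference of 1 or more and 1 TPM or more in the higher group were also required, and ranged from 1089 to 2018 with 1 library left out (exon reads, 1137 to 1974). The other scalings, filters, read columns and the thinning stayed within 1.5 times, and the cause of these shifts was not tested. The counts against 3 Day were 0 by edgeR, 217 by DESeq2, 329 without a filter, 65 by exon reads and 0 to 705 with 1 library left out; against 2 Day they were 7, 51, 297, 1 and 2 to 11. Acute 1 h against PBS gave 7592 calls by exon reads and 15277 by gene reads. GABRR2, which did not pass the test, ranged from -0.61 to 0.0351 with 1 library left out, its sign changing without 4 Day replicate 3. For the 24 genes named by rule, 301 of 346 repeats kept direction and call, and 45 kept direction only. The repeats by exon reads could not lose the call, because the rule required it. Repeats in which a gene had no result, such as those filtered out, are not among the 346.

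Replicate numbers did not pair the samples: deviations of same-numbered 4 Day and AA libraries correlated at 0.07, -0.05 and -0.09. With the replicate block 1564 genes were called against AA (1297 by exon reads), 0 against 3 Day, 2 against 2 Day, 4152 for Chronic 1 h and 14157 for Acute 1 h. Genes with few reads, such as MMP1, EGR2 in AA and GABRR2, were measured least precisely.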

Other observations

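Of 19 clock genes 4 rose and none fell, though 2 did by exon reads and 2 without 4 Day replicate 2, 4 Day replicate 3, AA replicate 1 or AA replicate 2. They were the period genes PER1 (0.70), PER2 (0.52) and PER3 (0.31) and the repressor BHLHE40 (1.31). PER1 is also in the immediate early list and BHLHE40 in the late activity list, so these calls are not separate ones. The splicing regulators went the other way, with 7 of 20 lower and 1, SRSF5 (0.24), higher: the CLK kinases, which phosphorylate SR proteins, fell together, CLK4 by 0.40, CLK2 by 0.36, CLK1 by 0.34 and CLK3 by 0.23 on the log2 scale.

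Glial markers rose in part, with 6 of 20 higher and 1, SOX2, lower. The list holds HES1 and TNC, whose rises are given above, so these calls are not all separate ones. GFAP, the astrocyte filament, was at 27.2, 36.5 and 28.4 TPM against 14.4, 17.6 and 21.8 (0.80 on the log2 scale, edgeR adjusted p = 0.00579), S100B rose by 0.61 and CLU by 0.53. The summed level of the list was 3981 to 4439 TPM at 4 Day and 3752 to 3885 TPM in AA. Neurofilament genes rose beside them, NEFM by 0.44 and NEFL by 0.41, in a pan-neuronal list with 3 of 17 higher and 1, ELAVL4 (-0.23), lower.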
